A study of Mus musculus with 4 samples.

Results

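The Frizzled genes encode the family of 10 seven-pass receptors, FZD1 to FZD10, through which cells receive WNT ligands. All 10 were measured here in cultured mouse ureters, by 13 probes out of the 39429 gene probes of the array, chosen by the gene name the array design gives them (Fzd1 to Fzd10). Each of the 10 genes had at least 1 probe above background and was tested, among 22461 genes tested in all. Ureters of wildtype NMRI embryos (E12.5) were dissected and kept as explants for 18 h, in medium that held 10 µM IWP-2 or, for the controls, the solvent DMSO alone. IWP-2 inhibits Porcupine, the enzyme that attaches the lipid by which WNT ligands are secreted and bind Frizzled receptors. The data are 4 two-colour arrays, each of 1 IWP-2 pool against 1 control pool of whole ureters, and the treated RNA carried the red dye on arrays 1 and 3 and the green dye on arrays 2 and 4. The sex of the embryos was not determined. The explants hold epithelium, mesenchyme and other tissue together, so that a fall in the number of cells that express a gene and a fall in its RNA per cell cannot be told apart.

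A Frizzled receptor binds the lipid of a WNT ligand with its extracellular cysteine-rich domain and passes the signal on through Dishevelled. Together with the co-receptors LRP5 and LRP6 it stabilises β-catenin, while with other partners it acts in planar cell polarity or through calcium. By sequence the family falls into the subgroups FZD1, FZD2 and FZD7, FZD5 and FZD8, FZD4, FZD9 and FZD10, and FZD3 and FZD6, and in the early ureter WNT ligands from the epithelium signal to the surrounding mesenchyme.

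The Frizzled genes differed in their response to IWP-2. Fzd10, Fzd9 and Fzd1 were lower, Fzd6 and Fzd8 were slightly higher, and Fzd2, Fzd3, Fzd4, Fzd5 and Fzd7 did not pass the test. In the limma fit over all genes 5 of the 10 genes had an adjusted p under 0.05, whereas 33.1% of all tested genes did. The 3 lower genes stand against 15.0% of all genes that were lower, and the 2 higher genes against 18.1% that were higher. Only Fzd10 was at least 2-fold lower, which was found for 0.735% of all genes. Fzd9 lay close to this limit, with a log2 ratio of -0.96. Over 15 alternatives of processing it ranged from -1.04 to -0.88, so that it was past the limit under some of them. For the same 5 genes the 4 control and the 4 IWP-2 channel values, after loess and Aquantile, did not overlap, which held for 22.4% of all genes. In the processed intensities given below, which were not scaled in this way, the channels of Fzd6 did overlap. On the log2 scale, IWP-2 over control, the 10 genes had a median ratio of -0.10 against 0.00 over all genes, and a median size of 0.27 against 0.10. Their median SD over the 4 arrays was 0.12, close to the 0.11 of all genes.

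**Figure D1:**
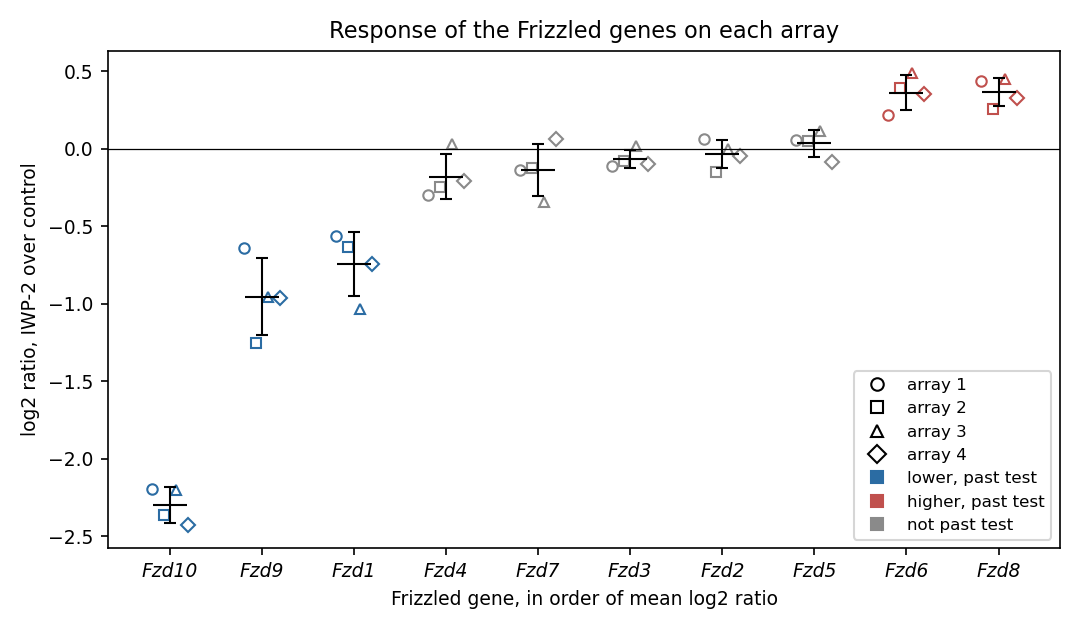
Log2 ratio of IWP-2 over control (vertical axis) of each Frizzled gene (horizontal axis, in order of the mean), 1 point per array; the black bars give the mean ± SD of the 4 arrays and the colours give the limma call. Fzd10 lies apart from all other members on every array. Fzd9 and Fzd1 together lie between -0.56 and -1.25 and overlap in part, 5 genes lie around 0, and Fzd6 and Fzd8 lie between 0.21 and 0.49.

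The median raw intensity of an array channel was 368 to 711 for control RNA and 385 to 694 for IWP-2 RNA, over a local background of 28 to 77, and no spot was saturated. The 6 genes Axin2, Lef1, Tcf7, Nkd1, Sp5 and Notum, known targets of the pathway, were all lower with IWP-2, with log2 ratios between -2.72 and -0.72. Over all tested genes 15.0% were lower, and the 6 were chosen with earlier results of these data known. All 42 marker genes of epithelium, mesenchyme, endothelium, blood, neural crest, macrophages and nephron progenitors passed the filter on background. Markers of ureter epithelium and mesenchyme were thus both detected, as were those of the other cell types.

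In the subgroup of FZD4, FZD9 and FZD10 the 3 genes went from a strong fall to no call. Fzd10 was measured by a probe at chr5:129109798-129109857 (mm9). Its processed intensity, which is background-subtracted and dye-normalised, was 553, 936, 1050 and 929.7 in the control channels of arrays 1 to 4. In the IWP-2 channels it was 108, 167, 218 and 156. Every treated channel thus lay below every control channel, and array 1 was the dimmest in both. Its log2 ratio was -2.19, -2.36, -2.20 and -2.43 on arrays 1 to 4, with a mean of -2.30 ± 0.12 (SD, n = 4), an SE of 0.04 and an adjusted p = 2.79e-06, a 4.91-fold difference. Of the 22461 genes tested only 13 had a more negative ratio. Its IWP-2 intensities remained above 100 on each array, and all of its channels were well above background, so that the fall is a measured value and no bound.

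Fzd9, the closest relative of Fzd10 in sequence within this subgroup, was measured by a probe at chr5:135724815-135724874 (mm9). Its processed intensity was 288, 279.5, 399 and 371 in the control channels and 173, 109.9, 197 and 186 in the IWP-2 channels. The channels did not overlap. Array by array the log2 ratio was -0.64, -1.25, -0.96 and -0.96, with a mean of -0.96 ± 0.25 (SD, n = 4), an SE of 0.07 and an adjusted p = 0.000325, a 1.94-fold difference. The fall was weakest on array 1 and strongest on array 2, and 184 genes had a more negative mean. Fzd9, Fzd10 and Fzd1 all lie on chromosome 5, each several megabases or more from the next.

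Fzd4, which besides WNT ligands binds the secreted protein Norrin and is known for its role in blood vessels, did not pass the test. Its processed intensity was 675, 609, 688 and 777 in the control channels and 549, 509, 718 and 676 in the IWP-2 channels. Its log2 ratio was -0.30, -0.25, 0.03 and -0.21 on arrays 1 to 4, so that array 3 stood against the other arrays. The mean was -0.18 ± 0.15 (SD, n = 4) with an adjusted p = 0.0606 and a 95% interval of -0.32 to -0.04. Without array 3 it was -0.26 and passed the test (adjusted p = 0.017), and it also passed with the 8 channels treated as separate samples (adjusted p = 0.0154) and with median centring (adjusted p = 0.0435).

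In the subgroup of FZD1, FZD2 and FZD7, Fzd1 was the single gene to pass the test. Its probe lies at chr5:4754003-4754062 (mm9). The processed intensity was 18439, 16730, 26284 and 22057 in the control channels and 12346, 10577, 12940 and 13126 in the IWP-2 channels. Control channels varied more than treated ones and yet lay above all of them. Fzd1 had a log2 ratio of -0.56, -0.64, -1.03 and -0.74, with a mean of -0.74 ± 0.21 (SD, n = 4), an SE of 0.08 and an adjusted p = 0.0011, a 1.67-fold difference. The largest fall was that on array 3, where the control channel was brightest.

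Fzd2 and Fzd7 were each measured by a pair of probes. The brighter probe of Fzd2 had a processed intensity of 3755, 4775, 5508 and 5054 in the control channels and of 4008, 4189, 5658 and 4817 in the IWP-2 channels. Its log2 ratio was 0.06, -0.15, 0.00 and -0.05, with a mean of -0.03 ± 0.09 (SD, n = 4), an adjusted p = 0.569 and a 95% interval of -0.13 to 0.07. A fall as large as that of Fzd1 thus lies outside the interval of Fzd2. The dimmer probe gave -0.11 ± 0.10 and was lower on 4 of 4 arrays.

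For Fzd7 the brighter probe had a processed intensity of 2849, 3080.3, 4529 and 3394 in the control channels and of 2632, 2783.5, 3644.5 and 3521 in the IWP-2 channels. The log2 ratio was -0.14, -0.13, -0.34 and 0.06, with a mean of -0.14 ± 0.17 (SD, n = 4), an adjusted p = 0.101 and a 95% interval of -0.27 to -0.01. Array 4 went against the other arrays. The dimmer probe was lower on 4 of 4 arrays (-0.13, -0.42, -0.14 and -0.22), with a mean of -0.23 ± 0.13. With the mean of both probes in place of the brighter one Fzd7 was lower (-0.18, adjusted p = 0.0276), so that its call depends on the probe.

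One probe of Fzd2 and one of Fzd7 cover the same stretch of these related receptors. They are shown to let the reader see how far these probes differ. Each probe has 60 bases, and over a stretch of 50 bases the probes match at 42. Capitals mark the bases of this stretch at which they differ. The sequences are those of the array files, 5′ to 3′, on the plus strand of mm9 at chr11:102467613-102467672 for Fzd2 and chr1:59541367-59541426 for Fzd7.
Fzd2: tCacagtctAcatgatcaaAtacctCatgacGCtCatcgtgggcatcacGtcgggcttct
Fzd7: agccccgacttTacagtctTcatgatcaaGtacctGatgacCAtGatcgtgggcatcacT
Among all 78 pairs of the 13 Frizzled probes this was the pair with the most matching bases, and the next pair matched at only 26. The Fzd2 probe shown is the brighter probe of that gene, and the Fzd7 probe shown is the dimmer one of that gene. The probes of Fzd10, Fzd9, Fzd1, Fzd6 and Fzd8 matched no other Frizzled probe at more than 26 bases in any ungapped position. Probes were compared with each other and not with the transcripts of the other members, so that binding to a paralogue was not tested.

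In the subgroup of FZD5 and FZD8, Fzd8 was higher. Its single probe lies on chromosome 18 and was dim. The processed intensity was 101, 123, 126 and 132 in the control channels and 139, 152, 181 and 176 in the IWP-2 channels. All treated channels lay above all control channels. Fzd8 had a log2 ratio of 0.43, 0.26, 0.45 and 0.33, with a mean of 0.37 ± 0.09 (SD, n = 4), an SE of 0.04 and an adjusted p = 0.00118, a 1.29-fold difference.

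Fzd5 was close to the limit of detection. Its processed intensity was 12.6, 12.9, 14.8 and 17.8 in the control channels and 13.8, 13.4, 17.6 and 15.1 in the IWP-2 channels. The log2 ratio was 0.06, 0.05, 0.12 and -0.09, with a mean of 0.03 ± 0.09 (SD, n = 4), an adjusted p = 0.573 and a 95% interval of -0.07 to 0.14. An offset of 50 was added to all signals, which draws the ratio of a probe this dim towards 0. On the scale of the processed intensity, without the offset, the same probe gave 0.05 ± 0.21, and the second, likewise dim probe 0.20 ± 0.34. The interval of Fzd5 therefore says little on the transcript itself.

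In the subgroup of FZD3 and FZD6, known above all for planar cell polarity, Fzd6 was higher and Fzd3 did not pass. Fzd6 was measured at chr15:38869107-38869166 (mm9), with a processed intensity of 1316, 1232, 1494.5 and 1547 in the control channels and of 1524.5, 1628, 2118 and 1998 in the IWP-2 channels. On each array the treated channel was the brighter one. The log2 ratio was 0.21, 0.39, 0.49 and 0.35, with a mean of 0.36 ± 0.11 (SD, n = 4), an SE of 0.05 and an adjusted p = 0.004, a 1.28-fold difference. With the series table of the authors, whose fold changes are rounded, the ratio was 0.38 but missed the threshold (adjusted p = 0.0513).

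Fzd3 had a processed intensity of 651, 627, 743 and 770.3 in the control channels and of 607, 591, 766 and 722 in the IWP-2 channels. The log2 ratio was -0.11, -0.08, 0.02 and -0.10, with a mean of -0.07 ± 0.06 (SD, n = 4), an adjusted p = 0.256 and a 95% interval of -0.17 to 0.03. A rise as large as that of Fzd6 thus lies outside the interval of Fzd3.

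**Figure D2:**
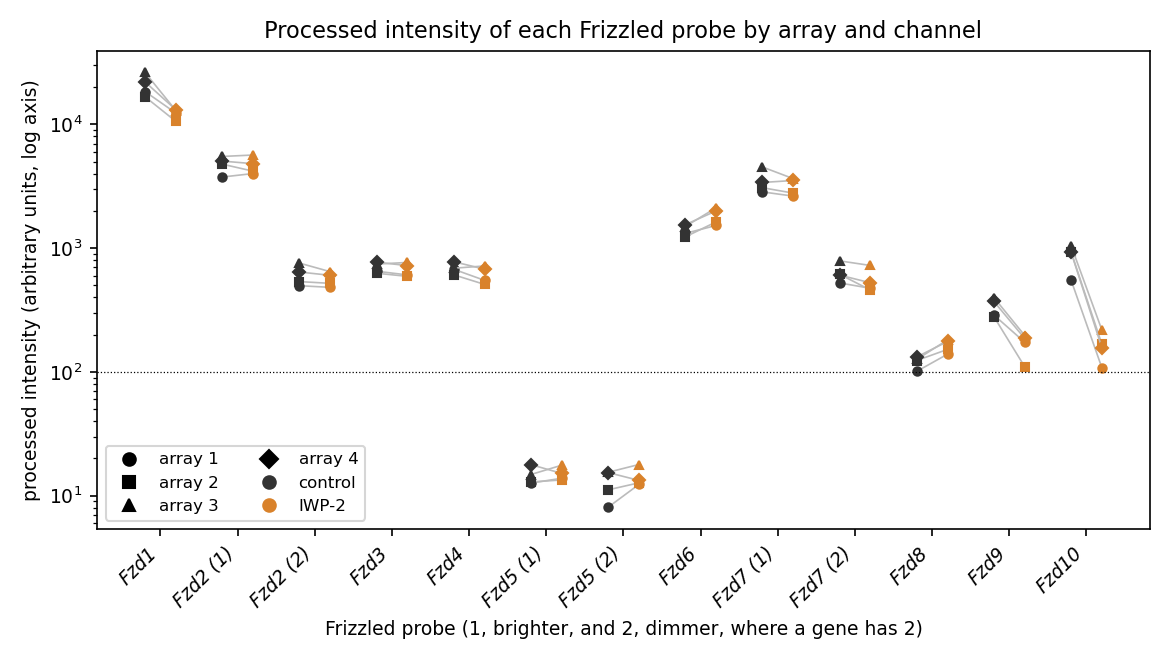
Processed intensity (vertical axis, log scale, arbitrary units) of the 13 Frizzled probes in the control channel (black) and the IWP-2 channel (orange), with grey lines joining the channels of 1 array; the dotted line marks 100, the limit on intensity used here. Brightness depends on the sequence of a probe, so that levels are to be compared within a probe only. Fzd1, Fzd9 and Fzd10 fall on all 4 arrays, as do the dimmer probes of Fzd2 and Fzd7. Fzd6 and Fzd8 rise on all 4.

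Levels of different probes cannot be ranked, because brightness depends on the sequence of the probe. Probes of the same gene differed in level as well. The log2 control level was 14.22 ± 0.14 and 11.27 ± 0.12 (SD, n = 4) for the probes of Fzd2 and 13.68 ± 0.20 and 11.32 ± 0.18 for those of Fzd7. These probes also differ in their position, and what set their levels apart was not tested. The ratios of these pairs of probes differed far less than their levels. All 13 probes were well above background in the 4 control and in the 4 IWP-2 channels, so that transcripts of each family member were detected, with the reserve that Fzd5 was barely so.

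The study used limits on intensity and fold change on each array in place of a test. They were set here as a processed intensity over 100 and a difference over 2-fold on all 4 arrays, while the sources do not settle which signal and which arrays the study applied them to. Of the Frizzled genes Fzd10 alone met the limits set here, among 96 lower genes out of 29924 gene names. With a limit of 1.5-fold on each array Fzd9 passed as well. Fzd1 did not, since its fall was below 1.5-fold on array 1.

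To see which members respond differently from each other, the log2 ratios were compared array by array along the order Fzd10, Fzd9, Fzd1, Fzd4, Fzd7, Fzd3, Fzd2, Fzd5, Fzd6 and Fzd8. Among the 9 pairs of neighbours, the arrays of both genes were separate for 3. Fzd9 was less negative than Fzd10 by 1.34 ± 0.20 (SD, n = 4), Fzd4 than Fzd1 by 0.56 ± 0.35, and Fzd6 was higher than Fzd5 by 0.33 ± 0.12, in each case on 4 of 4 arrays (exact permutation p = 0.12, two-sided, rounded, the smallest that 4 arrays allow). By separate ranges of neighbours the order thus holds 4 steps: Fzd10, then Fzd9 with Fzd1, then Fzd4, Fzd7, Fzd3, Fzd2 and Fzd5, then Fzd6 with Fzd8. The members of a step need not be alike, since Fzd4 and Fzd3 were each below Fzd5 on 4 of 4 arrays, with ranges that overlapped. Fzd9 and Fzd1 differed by 0.21 ± 0.30 and were in the same order on 3 of 4 arrays (exact permutation p = 0.25). Fzd6 and Fzd8 differed by 0.01 ± 0.15 (exact permutation p = 1), less than the spread between arrays. Over all 45 pairs of Frizzled genes the arrays were separate for 33. Since the order was taken from the same ratios, the steps are a description, and the permutation p of neighbours adds no support to them.

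To see what the members share at their start, the 250 bases before the RefSeq start of the Frizzled genes were searched for the core letters bound by the TCF and LEF factors, CTTTGA and CTTTGT, on both strands. RefSeq promoters (GRCm38.p6) were at hand for 6 of the 10 genes, Fzd1, Fzd4, Fzd5, Fzd7, Fzd9 and Fzd10. At least 1 of these letters was found in 27.6% of 32851 promoters of the same length, and in 2 of the 6 Frizzled promoters, those of Fzd1 and Fzd7. The 3 genes that fell are shown, with matches in capitals. Fzd10 lies at chr5:128600856-128601105 (plus strand), Fzd9 at chr5:135251048-135251297 (minus strand) and Fzd1 at chr5:4758217-4758466 (minus strand).
Fzd10: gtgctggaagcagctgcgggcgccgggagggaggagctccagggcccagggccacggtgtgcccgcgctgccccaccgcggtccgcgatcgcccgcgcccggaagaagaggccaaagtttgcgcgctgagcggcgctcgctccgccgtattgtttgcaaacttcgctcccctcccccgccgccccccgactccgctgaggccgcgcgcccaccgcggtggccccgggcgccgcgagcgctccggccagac
Fzd9: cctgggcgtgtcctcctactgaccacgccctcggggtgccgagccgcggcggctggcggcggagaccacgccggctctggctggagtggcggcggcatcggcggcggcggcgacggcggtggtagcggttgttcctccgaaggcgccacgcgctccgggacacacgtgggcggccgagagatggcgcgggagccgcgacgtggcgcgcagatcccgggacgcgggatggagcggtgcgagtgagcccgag
Fzd1: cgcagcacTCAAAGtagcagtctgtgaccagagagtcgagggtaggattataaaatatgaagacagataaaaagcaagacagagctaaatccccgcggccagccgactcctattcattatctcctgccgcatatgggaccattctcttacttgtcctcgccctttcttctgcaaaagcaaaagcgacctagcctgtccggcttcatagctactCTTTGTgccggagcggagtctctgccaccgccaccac
In Fzd1 the matches begin 242 and 37 bases before the start, and in Fzd7 the single match begins 129 bases before it. No match was found in this window for Fzd10 and Fzd9, nor for Fzd4 and Fzd5. The promoters of Fzd10 and Fzd9 hold 76.4% G and C, as does that of Fzd5, against 51.2% for Fzd1. A match is a run of letters and not a bound site, and its absence from this window says nothing on the rest of the locus.

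RefSeq places a noncoding gene, Fzd10os, 418 bases before the start of Fzd10. It was measured as 5930412G12Rik and was named here after its values were seen. Its log2 ratio was -0.17, -0.37, 0.00 and -0.37, with a mean of -0.23 ± 0.18 (SD, n = 4) and an adjusted p = 0.0107. The processed intensity was only 8.0 to 11.1 in the control channels, and with IWP-2 a single channel of 4 was well above background, so that its fall cannot be set against that of Fzd10 in size.

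The genes most like Fzd10 over the 8 channel values, by Pearson's r, were Foxf2 (0.996), Drd4 (0.996), Msx2 (0.995), 5730457N03Rik (0.994) and Ccdc85a (0.993). Foxf2 encodes a forkhead factor and Msx2 a homeobox factor. They fell less than Fzd10, with log2 ratios between -1.44 (Ccdc85a) and -0.98 (Msx2). The r is a description over 8 channels that share arrays and dyes, and it is carried largely by the step between control and IWP-2. Like Fzd10, the genes were lowest on array 1 within the control channels, as the centred values show. Since the genes were chosen by these same values, this shared low is a description and adds no support to their likeness.

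**Figure D3:**
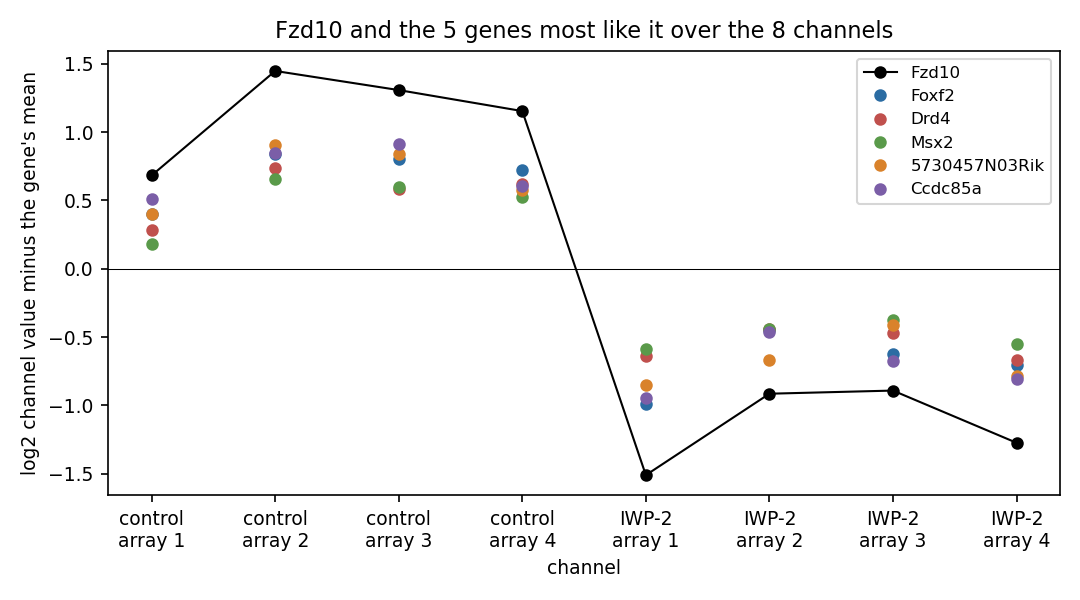
Log2 channel values after normalisation, each centred on the gene's own mean (vertical axis), in the 4 control and the 4 IWP-2 channels (horizontal axis) for Fzd10 (black line) and the 5 genes most like it (coloured points). All 6 genes step down with IWP-2, Fzd10 by the most, and the control channel of array 1 is the lowest of the control channels for each. The 5 genes were chosen by these same channel values.

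Among the 10 co-receptors and other WNT receptors, 2 were lower, 1 was higher and 7 did not pass. Over all tested genes 15.0% were lower and 18.1% higher, and the counts of each list are to be read beside these shares. The co-receptors Lrp5 and Lrp6 had log2 ratios of 0.02 ± 0.15 and -0.01 ± 0.06 (SD, n = 4). The WNT5A receptor Ror1 was lower (-0.28 ± 0.14, adjusted p = 0.00327), whereas its paralogue Ror2 had -0.04 ± 0.14. Gpr124, which with Reck serves WNT7 signals through Frizzled in vessels, was lower as well (-0.23 ± 0.11, adjusted p = 0.0119; without array 3 it was -0.21, adjusted p = 0.0548), and Reck had -0.10 ± 0.07. Tspan12, a partner of FZD4 in Norrin signalling, was higher (0.18 ± 0.19, adjusted p = 0.0392), a call that was lost under 7 of 15 alternatives. Ryk, Ptk7 and Musk had log2 ratios of 0.00, 0.03 and -0.18.

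Genes that set how long Frizzled stays at the surface went both ways. ZNRF3 and RNF43 are ubiquitin ligases that remove Frizzled, LGR receptors bound by R-spondins block these ligases, and SHISA proteins hold Frizzled in the endoplasmic reticulum. Of the 11 genes 9 were tested, and 3 were lower and 3 higher, beside 15.0% and 18.1% of all genes. Lgr6 and Rspo4 did not pass the filter on background. Lgr4 (-1.03 ± 0.17, adjusted p = 7.26e-05), Shisa2 (-0.98 ± 0.13, adjusted p = 8.79e-05) and Lgr5 (-0.44 ± 0.12, adjusted p = 0.00223) fell. Rspo1 (0.96 ± 0.71), Rspo2 (0.91 ± 0.21) and Rspo3 (0.39 ± 0.06) rose. Znrf3 (-0.12 ± 0.16), Rnf43 (0.05 ± 0.15) and Shisa3 (0.03 ± 0.14) did not pass.

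Secreted proteins with a Frizzled domain of their own, which bind WNT ligands away from the receptors, went both ways. Sfrp1 (0.27 ± 0.11) and Frzb (0.37 ± 0.12) rose, the dim Sfrp5 fell (-0.52 ± 0.20), and Sfrp2 (-0.09 ± 0.18) and Sfrp4 (-0.03 ± 0.11) did not pass. Over the 15 alternatives the ratio of Sfrp5 ranged from -0.89 to -0.45, and its call was lost with the series table (-0.89, adjusted p = 0.057). Smo, the relative of the Frizzled receptors that serves Hedgehog signalling, had -0.08 ± 0.04 (adjusted p = 0.172).

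Of the 20 ligand genes 16 were tested, and 4 were lower and 6 higher, beside 15.0% and 18.1% of all genes. Ndp, which encodes the FZD4 ligand Norrin, fell by 2.09 (SD 0.39, adjusted p = 0.000167), the largest fall of a ligand gene and close in size to that of Fzd10, whereas its receptor gene Fzd4 did not pass. Wnt5a (-0.38 ± 0.07), Wnt4 (-0.27 ± 0.07) and the dim Wnt2 (-0.48 ± 0.27) were lower. Wnt11 (0.55 ± 0.09), Wnt9a (0.44 ± 0.17), Wnt8b (0.28 ± 0.24), Wnt7b (0.21 ± 0.06), Wnt5b (0.18 ± 0.11) and Wnt9b (0.17 ± 0.08) were higher. Of these calls Wnt5b, Wnt8b and Wnt9b were lost under 4 or more of the 15 alternatives, and the ratios of Wnt2 and Wnt8b ranged from -1.65 to -0.13 and from 0.18 to 0.49. Wnt2b, Wnt3, Wnt3a and Wnt8a did not pass the filter on background.

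Inside the cell, the 9 genes of Dishevelled and the β-catenin relay had log2 ratios between -0.09 and 0.15, and Dvl1 alone passed (0.15 ± 0.10, adjusted p = 0.037, lost under 9 of 15 alternatives). Of the 10 partners in planar cell polarity, 5 were higher and 1 was lower, beside 18.1% and 15.0% of all genes. Celsr1 (0.56 ± 0.18), Celsr3 (0.47 ± 0.20), Vangl1 (0.29 ± 0.03), Celsr2 (0.26 ± 0.20) and Daam1 (0.17 ± 0.04) rose, as did Fzd6, which acts with them, and Prickle1 fell (-0.33 ± 0.07). The calls of Celsr2 and Daam1 were lost under 4 or more alternatives, and the ratio of Celsr2 ranged from 0.14 to 0.35. Fzd3, Vangl2 (-0.17 ± 0.13), Prickle2 (-0.04 ± 0.08), Daam2 (-0.15 ± 0.22) and Scrib (0.13 ± 0.10) did not pass. Over all of these lists, which were chosen with earlier results known, 11 of 60 tested genes were lower and 18 higher, or 48.33% past the test against 33.1% of all genes, with a median log2 ratio of 0.01.

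**Figure D4:**
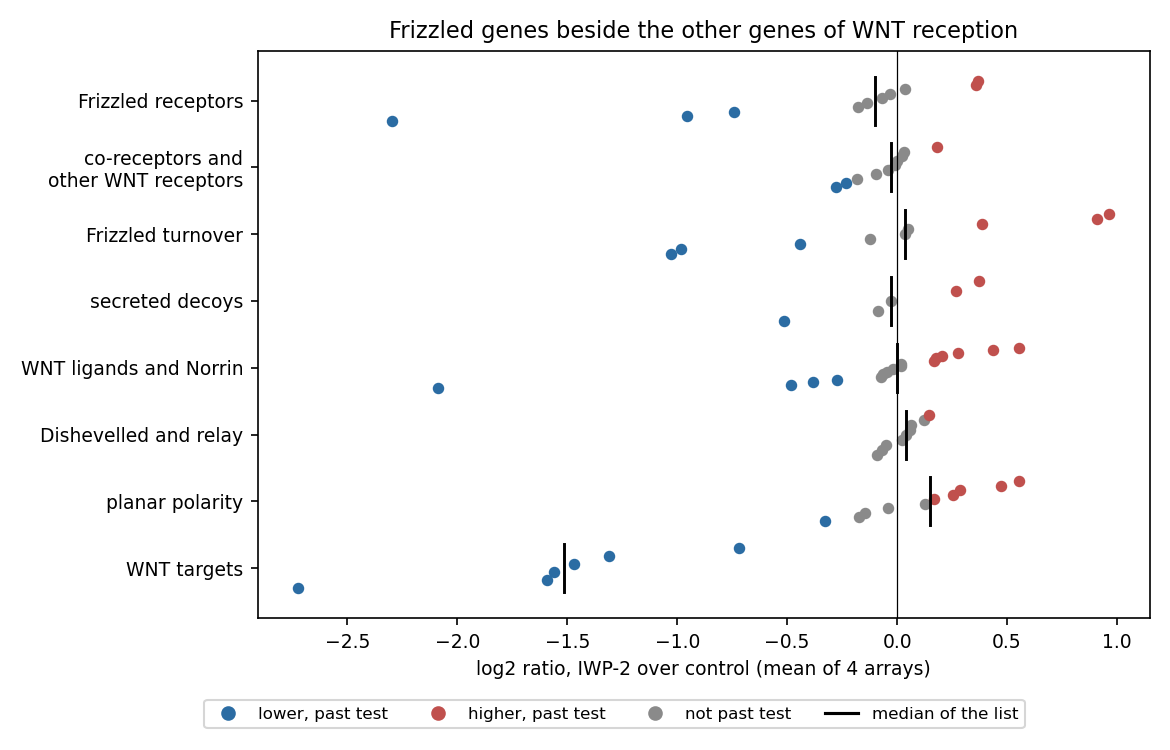
Log2 ratio of IWP-2 over control (horizontal axis, mean of 4 arrays) of each tested gene in the Frizzled family and in 7 lists of genes around it (vertical axis), coloured by the limma call, with the median of each list as a black bar. The medians of the Frizzled genes and of the partner lists lie between -0.10 and 0.15, with single genes far from them, while that of the 6 WNT targets lies at -1.52.

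Beside the changes of the Frizzled genes stood changes of tissue markers, of which 2 of 42 were lower and 28 higher, against 15.0% and 18.1% of all genes. All 7 epithelium markers were higher, with log2 ratios between 0.24 and 0.34, and their summed channel values ranged from 180000 to 195270 in the control and from 205180 to 255530 in the IWP-2 channels. Of the 6 markers each of endothelium and blood, 4 and 5 were higher. Among these calls Hbb-y (0.28 ± 0.46) was lower on 2 of 4 arrays, those with the treated RNA in green, and Hba-a1 (0.30 ± 0.27) was lower on 1. Higher were also 4 of 5 macrophage, 5 of 6 nephron progenitor and 2 of 6 neural markers. The remaining nephron progenitor marker, Crym, was lower on 4 of 4 arrays (-0.96 ± 0.45). Of the 6 mesenchyme markers Pdgfrb rose by 0.80, Tbx18 fell by 0.74 and 4 did not pass. The summed values of the mesenchyme markers ranged from 361240 to 390940 in the control and from 374680 to 416620 in the IWP-2 channels. The part of tissue composition in the changes of Fzd1, Fzd6, Fzd8, Fzd9 and Fzd10 was not tested.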

How the data were processed

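Gene expression was measured on 4 two-colour Agilent arrays, each of 1 IWP-2 pool against 1 control pool of E12.5 ureter explants. The authors scanned the arrays with Agilent Feature Extraction 10.7.3.1 (per the submitters' processing notes), and the deposited files give for each spot a raw and a processed intensity per channel and a log10 ratio, used only to check direction (Pearson r of 0.935 or higher with the processed signals). The deposited series table holds 1 signed fold change per probe and array with 1 decimal, treated here as a score and turned to log2 as an alternative. Its normalisation and scale are not stated, its column medians are 1, and its direction follows the processed ratios (r of 0.988 to 0.992 over probes with a mean processed intensity over 100).

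Raw intensities were corrected with normexp (offset 50) and loess (span 0.3) in limma 3.58.1 (R 4.3.3). Control and outlier spots were left out, the 4 spots of a probe averaged, and the brightest probe stood for a gene. Tested were 22461 genes, with a probe well above background in more than 0.5 of its spots in all 4 control or all 4 IWP-2 channels. The log2 ratios were fitted by lmFit and eBayes for the treatment effect, with an added dye term, and p-values (two-sided) were adjusted over all 22461 genes by Benjamini-Hochberg, with a threshold of 0.05. For the dye term 0 genes passed with limma (lowest adjusted p 0.122). Channel levels were taken after loess and Aquantile. The SD between arrays still holds the dye effect. The fit was tested on simulated data.

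All 4 arrays came from 1 slide and 1 scan, so that no block could be fitted. The number of arrays limits the precision. The labels number the pools from 1 to 4, but do not say which embryos they share, so that p-values measure the spread between these arrays, which may be partly technical. Arrays of the same dye order correlated best across genes (r of 0.798 and 0.831, against 0.625 to 0.740). The members, the gene lists and the tests were chosen with earlier results of these data known. Named are all Frizzled genes and probes, members of lists past the test or of lists of at most 10, and the 5 genes most like Fzd10. Alternatives were the processed signals, offset 0, median centring, scaling between arrays, no dye term, the series table, 8 separate channels, 2 other filters, the mean of probes, outlier spots kept, each array left out, and other limits on intensity and fold. Positions are mm9 as in the files, and lacking annotation of that build, exons and untranslated regions were not assigned. Promoters are from RefSeq (GRCm38.p6). Gpr124 is named Adgra2 on the array.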

Additional observations from a re-analysis of the deposited data

How the results depend on the processing

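Each Frizzled ratio was recomputed under 15 alternatives, and none changed direction. Fzd1 (-0.86 to -0.63), Fzd8 (0.35 to 0.43), Fzd9 (-1.04 to -0.88) and Fzd10 (-2.42 to -2.28) passed the test under all 15. Fzd2, Fzd3 and Fzd5 passed under none. Fzd6 missed the threshold with the series table (0.38, adjusted p = 0.0513), where the count of higher Frizzled genes was 1 in place of 2 and that of higher partner genes 7 in place of 18. Fzd4 passed with median centring (-0.19), with 8 separate channels (-0.18) and without array 3, and over the arrays left out it ranged from -0.26 to -0.10. Fzd7 passed with the mean of its probes (-0.18). With 1.5-fold, 2 Frizzled genes met the limits on intensity and fold in place of 1. Of 29 partner genes past the test, 12 kept their call under all alternatives, 10 lost it under 1, and 7 under 4 to 9. Over all genes the series table gave 2050 lower and 1833 higher genes, against 3360 and 4069, and 2177 were lower without array 3. The cause was not tested. A block of slide or scan was not run, and no paired analysis beyond the ratio within each array was possible because both samples of a number share an array. The all-gene median was -0.01 to 0.01 under every alternative. Low signal limits Fzd5 and, less so, Fzd8.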
